A study of Arabidopsis thaliana with 47 samples.

Results

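The step between 0.5 and 1 h after a shift to brighter light was read from 8 of the 47 arrays of the series: the 4 arrays of seedlings collected at 1 h and the 4 arrays of seedlings collected at 0.5 h, all grown without lincomycin. The arrays were chosen by their labels alone. Whole 7-day-old Arabidopsis thaliana seedlings of the wild type Col-0 had been raised on a sucrose medium under red and blue lamps at 0.5 µmol m-2 s-1 for 6 days, and the light was then raised to 60 µmol m-2 s-1. Each array held the RNA of 1 pool of seedlings on an Affymetrix ATH1 array, and the replicates of a group were separate cultures according to the study's design. Beside them stand the 4 arrays numbered 1 to 4 of seedlings taken before the shift (0 h) without lincomycin, and the same times of seedlings grown with 0.5 mM lincomycin (3 arrays at 1 h, 4 at 0.5 h and 4 at 0 h). The other arrays were taken at 4 and 24 h, with 4 further 0 h arrays numbered 5 to 8 in each treatment.

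Lincomycin is an antibiotic that stops protein synthesis in plastids, so seedlings grown on it lack working chloroplasts. In Arabidopsis, phytochromes and cryptochromes sense the red and blue light and hold back an E3 ubiquitin ligase built from COP1 and SPA proteins. The transcription factor HY5 then accumulates and switches on genes for pigments and photoprotection, while genes that favour elongation in shade are shut down. Genes reached through newly made transcription factors respond later than the primary targets, and some primary targets fall back soon after their first response through negative feedback.

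Values are linear signals scaled by array, and changes are differences of log2(signal + 1), so that 1 log2 unit is a 2-fold change. A gene is said to have risen or fallen where the Benjamini-Hochberg adjusted p of the limma fit, over 22746 probe sets, was under 0.05. Median signals of the arrays were 195.8 to 206 at 1 h, against 195.8 to 201 for the 0.5 h arrays, and no 2 arrays held identical values. The spike-in control Dap, which is added to the RNA before labelling, read 3.90 to 4.97 (log2) at 1 h and 3.71 to 4.23 at 0.5 h. It read 3.01 to 5.02 in the 0 h arrays 1 to 4 without lincomycin and 8.99 to 9.45 in the 0.5 and 1 h arrays with lincomycin, so the arrays of the step resembled each other in this control and the lincomycin arrays stood apart. Array number 4 at 24 h without lincomycin was left out of the fit. It had been found to stand apart in an earlier analysis of these data, and no values for this are given here.

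Between 0.5 and 1 h without lincomycin, 708 of the 22746 probe sets (3.11%) differed, 349 higher (1.53%) and 359 lower (1.58%) at 1 h. They covered 337 genes that rose and 349 genes that fell. The median change over all probe sets was 0.01 log2, that of the genes that rose was 0.68 and that of the genes that fell was -0.54. By at least 1 log2 unit, 93 probe sets were higher and 47 lower. For 654 of the 708 probe sets the 4 arrays at 1 h did not overlap with the 4 arrays at 0.5 h, a separation that 2223 of all probe sets (9.77%) showed. With array 4 at 24 h in the fit, 329 probe sets were called, and a fit of the 8 arrays alone called 314 (202 higher and 112 lower). In whole seedlings, fewer cells of a type and less RNA per cell cannot be told apart.

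**Figure D1:**
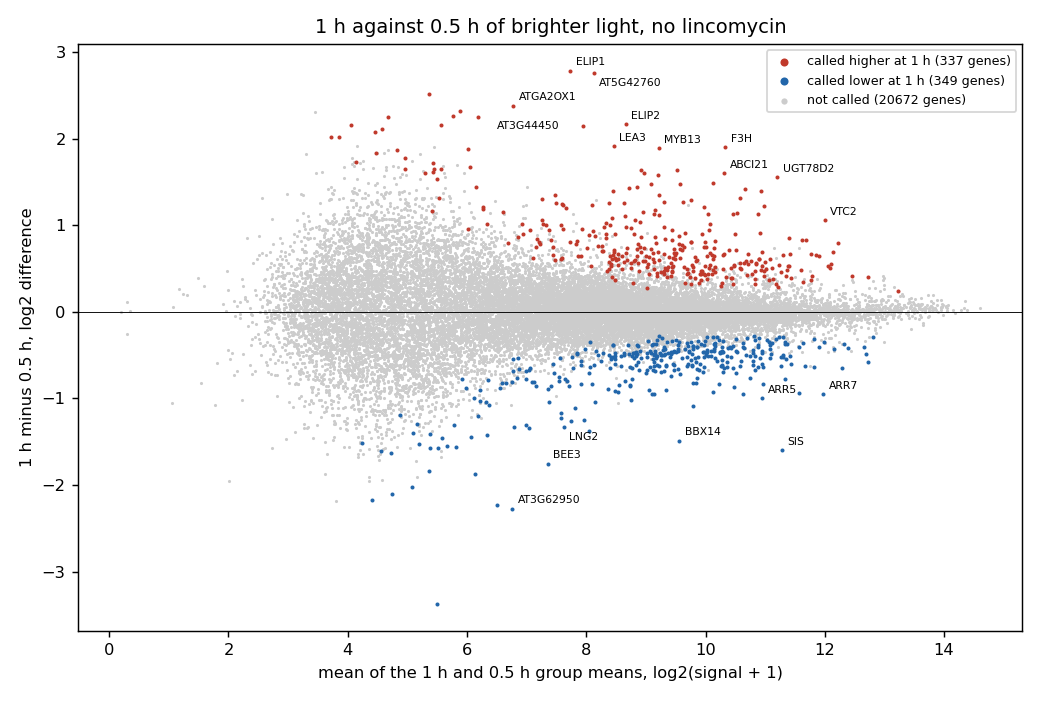
Change of each gene between 0.5 and 1 h without lincomycin (1 h minus 0.5 h, log2 difference, vertical axis) against its mean level over both groups (log2(signal + 1), horizontal axis). Each dot is a gene, with 337 genes called higher in red, 349 called lower in blue and the others in grey. Called changes of bright genes are mostly under 2 log2 units, while dim genes on the left scatter widely around 0 and are mostly not called.

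The 12 genes with the largest rises, among called genes that reached the median level and whose groups did not overlap, included both early light-inducible proteins, enzymes of phenylpropanoid sugars and flavonoids, and genes without a symbol in the annotation used. ELIP1 (AT3G22840), a chlorophyll-binding relative of the antenna proteins that protects plastids in strong light, had signals of 652, 670.3, 433 and 507 at 1 h, against 112, 40.6, 56.4 and 158 at 0.5 h. Every 1 h array was above every 0.5 h array, and the arrays before the shift (37.9 to 106) spanned much of the range of those at 0.5 h. ELIP1 was 2.78 ± 0.44 log2 (SE) higher at 1 h (adjusted p = 5.3e-05), the largest rise of the 12. Its neighbour in function ELIP2 (AT4G14690) had 947, 1116, 664 and 778 at 1 h, against 251, 263, 135 and 149 at 0.5 h. The ELIP2 groups did not overlap either, and the gene rose by 2.16 ± 0.28 log2 (adjusted p = 2.5e-06). Neither gene was called at 0.5 h against 0 h (adjusted p = 0.919 for ELIP1 and 0.343 for ELIP2), a comparison that shares the 0.5 h arrays with the step.

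AT5G42760 had signals of 754, 805, 727 and 625 at 1 h, against 136, 103, 103 and 87.8 at 0.5 h. The rise was 2.76 ± 0.56 log2 (adjusted p = 0.0018), and all 1 h arrays lay above 600 while all 0.5 h arrays lay below 140. ATGA2OX1 (AT1G78440), which inactivates gibberellins, had 261, 282, 216 and 242 at 1 h, against 31.4, 70.2, 54.1 and 40.6 at 0.5 h. The 0.5 h mean lay below the first quartile of signals of its arrays, so the rise is given as a bound of 2.34 log2 (fitted 2.38 ± 0.34, adjusted p = 1.4e-05). AT3G44450 had 479.7, 573, 507 and 527 at 1 h, against 142, 176, 95.7 and 77.7 at 0.5 h, a rise of 2.15 ± 0.27 log2 with no overlap. MYB13 (AT1G06180), a transcription factor of the MYB family, had 1232, 1189.6, 1271 and 916 at 1 h, against 376, 321, 283 and 266 at 0.5 h. Its rise of 1.89 ± 0.18 log2 (adjusted p = 4.8e-09) followed 0.74 at 0.5 h against 0 h. UGT84A2 (AT3G21560), a glucosyltransferase that makes sinapoylglucose, the precursor of ultraviolet-absorbing sinapate esters, had 1221, 1455, 1305 and 1243 at 1 h, against 395, 448, 383 and 451 at 0.5 h. Both UGT84A2 groups were narrow and lay far apart, and the rise was 1.64 ± 0.18 log2. The remaining large rises were LEA3 (late embryogenesis abundant 3; 1.91 log2), F3H (1.90, described with the flavonoid genes), AT1G06000 (1.64), the ATP-binding cassette protein ABCI21 (1.60) and ASG4 (1.60). ASG4 lost its call with array 4 at 24 h in the fit.

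Light signalling gave more rises than any other of the 34 gene lists. The lists were chosen with earlier results of these data known, so the called shares given here and below describe the lists and are no independent test. Of its 34 measured genes, 12 rose and 1 fell (38.2% called, against 3.11% of all probe sets), and the list median was 0.29 log2 against 0.01 for all probe sets. HY5 (AT5G11260), the bZIP factor that drives light-induced transcription, had signals of 1304, 1198, 1229.6 and 1189 at 1 h, against 582, 488, 519 and 455 at 0.5 h and 235, 286, 253 and 296 at 0 h. The 3 times did not overlap in HY5, and the step was 1.27 ± 0.16 log2 (adjusted p = 1.4e-06). Its close homolog HYH, named after its values were seen, rose by 1.17 ± 0.14 log2. RUP1 (AT5G52250), a repressor of the ultraviolet-B receptor UVR8, had 1036, 1135, 815 and 840.05 at 1 h, against 357, 388, 379.97 and 359.8 at 0.5 h. RUP1 rose by 1.35 ± 0.16 log2 (adjusted p = 4.1e-07) and its paralog RUP2 by 1.29 ± 0.18 (adjusted p = 1e-05). These were 2 genes that turn the ultraviolet-B response down again.

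B-box zinc finger proteins, which bind HY5 or act beside it, made up 7 of the 13 called genes. BBX16 (AT1G73870) had 736, 609, 797 and 620.1 at 1 h, against 301, 255, 243 and 228 at 0.5 h, a rise of 1.42 ± 0.37 log2 (adjusted p = 0.0229). Its groups lay far apart, but the call was lost when any of 4 single arrays was left out (adjusted p from 0.0336 to 0.0743 over the 8 arrays left out in turn). The called members named from here on in this paragraph were chosen after their values were seen. BBX31 rose by 1.21 ± 0.18 log2, BBX18 by 1.13 ± 0.11, BBX25 by 0.66 ± 0.10, BBX22 by 0.53 ± 0.09 and BBX24 by 0.40 ± 0.08. In Arabidopsis BBX24 and BBX25 reduce HY5 activity while BBX21 and BBX22 promote it. BBX21 was the member that fell, by 0.46 log2 (adjusted p = 0.0397). COP1, the ligase itself, rose by 0.39 ± 0.06 log2 (adjusted p = 9.1e-05) and its partner SPA1 by 0.68 ± 0.18 (adjusted p = 0.0301). The calls of SPA1 and BBX21 were less steady: leaving out single arrays ended them for 5 and 7 of the 8 arrays, with adjusted p up to 0.126 and 0.121. BBX21, BBX25 and SPA1 also lost their calls with array 4 at 24 h in the fit, and BBX21, BBX24 and COP1 in the fit of the 8 arrays alone. No change was called in the blue light signalling gene RPT2, the brightest member without a call (0.31 ± 0.13, adjusted p = 0.282).

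**Figure D2:**
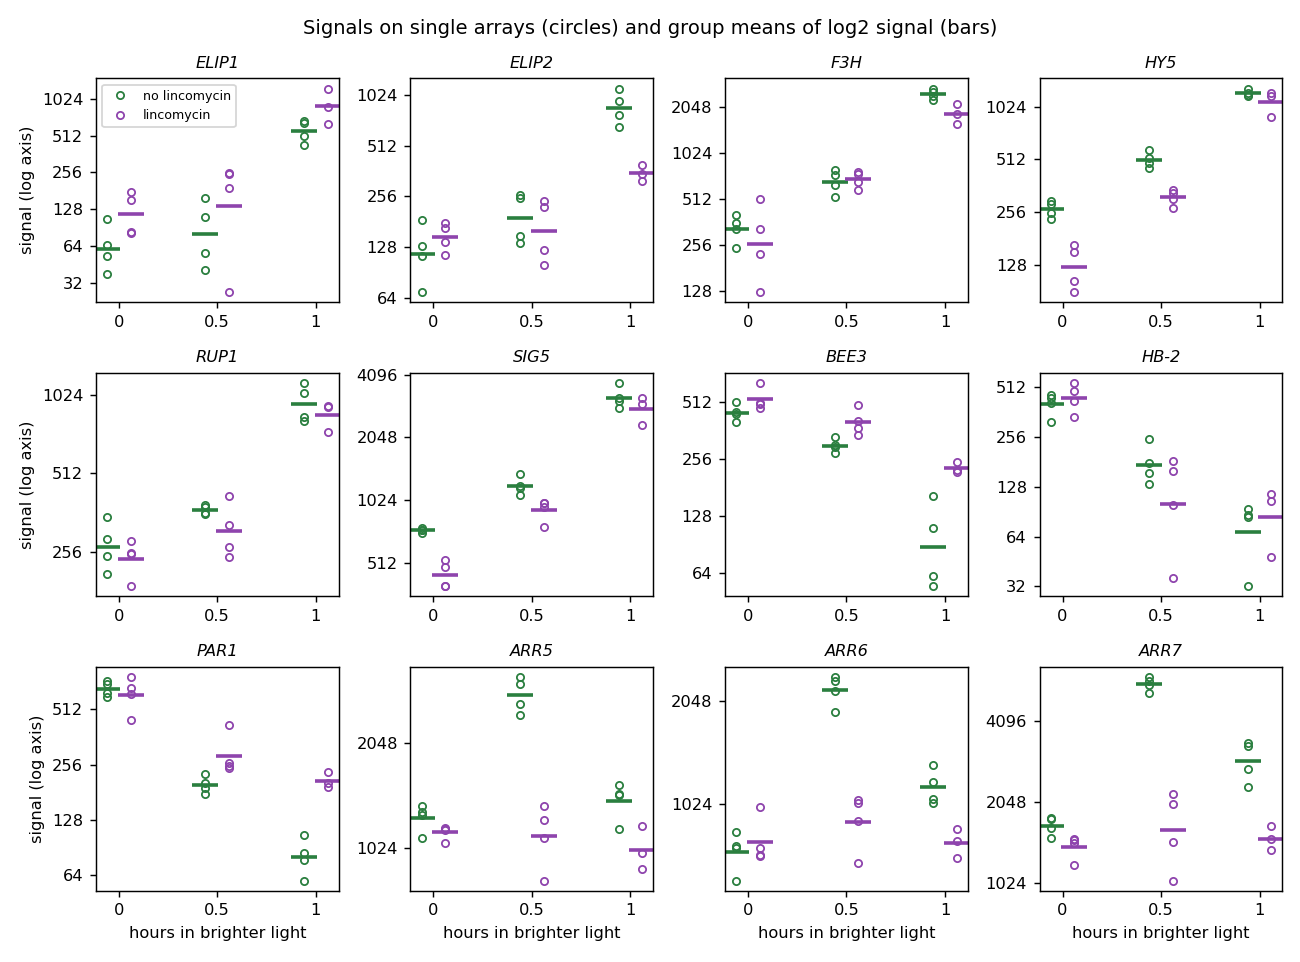
Signals of 12 genes on single arrays (circles, log axis) at 0, 0.5 and 1 h, without lincomycin (green) and with lincomycin (purple), with bars at the mean of the log2 values. The 0 h arrays are those numbered 1 to 4. Green circles of ELIP1, ELIP2, F3H, HY5, RUP1 and SIG5 are highest at 1 h, those of BEE3, HB-2 and PAR1 lowest, and those of ARR5, ARR6 and ARR7 peak at 0.5 h.

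Flavonoids are phenolic pigments that absorb ultraviolet light and are made in light-exposed tissue. Of 24 measured genes of their synthesis and control, 4 rose and none fell (16.7% called, against 3.11% of all probe sets, list median 0.40 log2). F3H (AT3G51240), flavanone 3-hydroxylase, had 2560.5, 2702, 2413 and 2286 at 1 h, against 795, 529.6, 633 and 733 at 0.5 h. The F3H groups did not overlap, and the rise of 1.90 ± 0.22 log2 (adjusted p = 3e-07) was among the 12 largest. UGT78D2 (AT5G17050), which attaches glucose to flavonols and anthocyanins, had 4124, 4442, 3729 and 3941 at 1 h, against 1779, 1549, 1002 and 1299 at 0.5 h. Its rise was 1.56 ± 0.13 log2 (adjusted p = 6.8e-10). MYB12 (AT2G47460), an activator of flavonol genes, had 250.5, 229, 215 and 190.2 at 1 h, against 133, 84.7, 109 and 113 at 0.5 h and rose by 1.01 ± 0.21 log2. MYB4, a repressor of the pathway and named after its values were seen, rose by 0.74 ± 0.20 log2 (adjusted p = 0.034), a call that ended with array 4 at 24 h in the fit and when any of 7 single arrays was left out (adjusted p up to 0.103). Chalcone synthase (CHS, AT5G13930), the entry enzyme, had 929.8, 711, 950.2 and 567 at 1 h, against 349.96, 207, 943 and 935 at 0.5 h. The CHS arrays at 0.5 h were split, 2 low and 2 as high as at 1 h, and the difference of 0.62 ± 0.46 log2 did not pass the test (adjusted p = 0.714).

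Photoprotection and antioxidant genes gave 3 rises among 26 measured members and no fall (11.5% called, against 3.11% of all probe sets, list median 0.11 log2), the ELIP pair and VTC2. VTC2 (AT4G26850), a GDP-L-galactose phosphorylase that controls ascorbate synthesis, had 6083, 6017, 5513 and 6049.97 at 1 h, against 2926, 3333, 2468 and 2688 at 0.5 h. VTC2 arrays varied little within a group, and the rise of 1.06 ± 0.08 log2 had an adjusted p of 7.1e-11. In carotenoid synthesis 1 of 13 genes rose (7.7%, against 1.53% of all probe sets, a share that rests on that 1 gene). It was BCH1 (AT4G25700), a beta-carotene hydroxylase, with 2295, 2125, 1991 and 2011 at 1 h, against 1282, 1390.2, 1334 and 1293 at 0.5 h (0.67 ± 0.10 log2, adjusted p = 3.1e-05). BCH1 did not differ beyond the threshold between 0.5 h and 0 h (-0.07 log2, adjusted p = 0.953).

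Among 11 regulators of the plastid, 3 rose and none fell (27.3% called, against 3.11% of all probe sets). SIG5 (AT5G24120), a nuclear-encoded sigma factor that directs the plastid RNA polymerase in blue light, had 3731, 3054, 3154 and 2832 at 1 h, against 1368, 1194, 1089.8 and 1178 at 0.5 h. The SIG5 rise was 1.40 ± 0.13 log2 (adjusted p = 1.5e-09). CGA1 (AT4G26150), a GATA factor of greening, had 2854, 2633, 2753 and 2949 at 1 h, against 1261, 1315, 1282 and 1261 at 0.5 h, and rose by 1.13 ± 0.19 log2. Its paralog GNC (AT5G56860) had 656, 697, 710.4 and 684 at 1 h, against 339.9, 375, 302 and 319 at 0.5 h, and rose by 1.04 ± 0.14 log2. The 0.5 h groups of both stood clear of the 1 h groups. GLK1, an activator of photosynthesis genes, had 669, 691, 768 and 843 at 1 h, against 642, 533, 489 and 536 at 0.5 h, without overlap. Its difference of 0.43 ± 0.27 log2 did not pass the test (adjusted p = 0.608). In photosynthesis itself no gene was called among 12 antenna proteins (list median 0.10 log2), 25 photosystem and electron transport proteins (0.05), 13 Calvin cycle enzymes (0.08) and 22 tetrapyrrole genes (0.05), which gave 0, 1, 2 and 4 genes at an unadjusted p under 0.05 in limma. The 71 genes of the plastid genome had a median of 0.19 log2, ranging from -0.13 to 0.74, with none called and 14 (19.7%) at an unadjusted p under 0.05, against 12.2% of all probe sets.

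Clock genes moved in part. Of 24 measured genes, 5 rose and 1 fell (25.0% called, against 3.11% of all probe sets, list median 0.07 log2). GI (AT1G22770), which couples the clock to light and flowering, had 2223, 2086, 2015 and 1978 at 1 h, against 954, 999, 976 and 873 at 0.5 h. GI arrays were close together within each group, and the rise was 1.13 ± 0.10 log2 (adjusted p = 1.8e-09). LNK1 (AT5G64170), a light-regulated coactivator of the clock, had 1412, 1310.3, 1344 and 1329 at 1 h, against 877, 748, 667 and 806 at 0.5 h and rose by 0.81 ± 0.12 log2. ELF4, part of the evening complex, rose by 0.67 ± 0.14 log2. The clock repressor PRR5 (0.61 ± 0.14 log2), the LNK1 relative LNK4 (0.37 ± 0.10) and the F-box gene LKP2, which fell by 0.53 log2 (adjusted p = 0.0289), were named after their values were seen. PRR5 lost its call without 0.5 h array 2 (adjusted p = 0.0568), and LNK4 and LKP2 each without 6 of 8 single arrays (adjusted p up to 0.141 and 0.137). ELF4, LNK4 and LKP2 were called neither with array 4 at 24 h in the fit nor from the 8 arrays alone, and PRR5 was not called from the 8 arrays alone. CCA1, a morning gene, had 2796, 2691, 2748 and 2815 at 1 h, against 2302, 2164, 2099 and 2140.2 at 0.5 h, without overlap, but its difference of 0.34 ± 0.11 log2 had an adjusted p of 0.0928.

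Stress genes gave few rises, and no fall was called in them in the main fit. Of 32 rapid stress transcription factors 3 rose (9.4% called, against 3.11% of all probe sets, list median 0.15 log2). ZAT10 (AT1G27730), a zinc finger repressor induced by strong light, had 463, 473, 462 and 362 at 1 h, against 282, 262, 167 and 198 at 0.5 h and rose by 0.98 ± 0.17 log2 (adjusted p = 0.00023). ZAT12 (AT5G59820), of the same family, had 744, 730.4, 656 and 668 at 1 h, against 458, 481, 357 and 399 at 0.5 h and rose by 0.73 ± 0.15 log2. DREB2A, a drought and heat factor, rose by 0.59 ± 0.16 log2, a call lost without 7 of 8 single arrays (adjusted p up to 0.0928). RD26, of the same list, had 2621, 2885, 2481 and 2718 at 1 h, against 3658, 3629, 3554 and 3928 at 0.5 h, without overlap. Its change of -0.47 log2 was not called (limma adjusted p from 0.255 to 0.401 with single arrays left out). In 2 of 8 other settings the fall of RD26 was called (lowest adjusted p = 0.0169). Heat shock genes and chaperones gave 3 rises among 29 (10.3% called, list median 0.24 log2, against the same 3.11%). HSP70 (AT3G12580) had 4688, 3788, 4792 and 4357 at 1 h, against 2358, 2344, 3084 and 2168 at 0.5 h, with a rise of 0.83 ± 0.14 log2 (adjusted p = 0.00018). The 0.5 h HSP70 arrays reached 3084 and stayed below the lowest 1 h array. MBF1C, a heat coactivator, rose by 0.61 ± 0.14 log2 and the plastid chaperone CLPB3 by 0.32 ± 0.09, and the CLPB3 call ended without any 1 of the 8 arrays (adjusted p from 0.0513 to 0.146). Single genes rose in 3 further lists, where 1 gene alone makes 7.7% to 16.7% of a list against 1.53% of all probe sets higher: the alternative oxidase AOX1A (0.54 ± 0.10 log2) among 6 genes of alternative respiration, the adenosine phosphosulfate reductase APR2 (0.71 ± 0.13) among 8 of nitrate and sulfate assimilation, and the calmodulin-like CML24 (0.47 ± 0.13) among 13 of calcium and touch signalling. CML24 lost its call without 7 of 8 single arrays (adjusted p up to 0.22), and its groups overlapped. With array 4 at 24 h in the fit AOX1A, APR2, CLPB3, CML24, DREB2A and HSP70 were not called, and from the 8 arrays alone AOX1A, CLPB3, CML24 and ZAT10 were not.

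The largest falls were led by AT3G62950, with signals of 90.14, 30.5, 21.5 and 89.6 at 1 h, against 197, 245, 232 and 282 at 0.5 h. The 1 h mean lay below the first quartile of signals, so the fall is given as a bound of 2.24 log2 (fitted -2.27 ± 0.45, adjusted p = 0.0012). This bound takes no account of the spread. BEE3 (AT1G73830), a bHLH factor that responds to brassinosteroids and acts in growth, had 61.7, 54.5, 110.1 and 163 at 1 h, against 275, 332, 302 and 294 at 0.5 h. BEE3 varied at 1 h but stayed below every 0.5 h array, and changed by -1.76 ± 0.21 log2 (adjusted p = 6.9e-07). SIS (AT5G02020, salt induced serine rich) had 1489, 1486, 1105 and 1716 at 1 h, against 4344, 3947, 4873 and 4220.1 at 0.5 h, a change of -1.60 ± 0.16 log2 (adjusted p = 1.1e-08). SIS was the brightest of the 12 largest falls. BBX14 (AT1G68520), a B-box protein, had 455, 387, 445 and 524 at 1 h, against 1232, 1113, 1341 and 1401 at 0.5 h, and changed by -1.49 ± 0.17 log2 (adjusted p = 3.4e-07). A second B-box gene, BBX27, changed by -1.23 ± 0.29 log2, so that B-box genes stood on both sides of the step. LNG2 (AT3G02170, LONGIFOLIA2), which promotes lengthwise growth of leaves, had 128, 151, 112 and 106 at 1 h, against 248, 295, 361 and 359 at 0.5 h and 568, 633, 652 and 658 at 0 h. LNG2 thus stepped down at both times, by -1.34 ± 0.16 log2 in this step. The others were AT5G02760 (-1.38 log2, a protein phosphatase of the PP2C clade D), AT4G10910 (-1.34), AT5G59080 (-1.26), AT5G62280 (-1.25), the bZIP factor BZIP61 (-1.17) and AT4G04630 (-1.12). AT3G62950, BEE3 and AT4G10910 lost their calls in the fit of the 8 arrays alone, and AT5G62280 with array 4 at 24 h.

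Falls were called in part of the shade growth genes. Of 16 measured genes of shade avoidance and the phytochrome-interacting factors, 6 fell and none rose (37.5% called, against 3.11% of all probe sets), and the list median was -0.48 log2. HB-2 (AT4G16780), a homeodomain factor that is a classical shade marker, had 86.4, 94.1, 32.1 and 83.4 at 1 h, against 177, 133, 249 and 154 at 0.5 h and 412, 439, 457 and 316 at 0 h. HB-2 changed by -1.33 ± 0.35 log2 (adjusted p = 0.0218), a call that ended without 1 h array 3 (adjusted p = 0.169) and without 0.5 h array 3, over a range from 0.0225 with single arrays left out. PAR1 (AT2G42870), a small protein that restrains shade growth and is itself induced by shade, had 84.7, 77.5, 106 and 59.9 at 1 h, against 176, 192, 229 and 205 at 0.5 h and 632, 726, 699.6 and 595 at 0 h. PAR1 changed by -1.30 ± 0.25 log2 (adjusted p = 0.001), after -1.72 at 0.5 h against 0 h. HAT3, a relative of HB-2, had 119, 76.4, 126 and 182 at 1 h, against 219.99, 157, 256 and 282 at 0.5 h. Its groups overlapped, and the change of -0.89 ± 0.21 log2 lost its call without 1 h array 2 (adjusted p = 0.0799) and without 0.5 h array 4, with a lowest value of 0.00103 over the single arrays. Named after their values were seen, the cell wall-loosening expansin EXPA8 changed by -0.76 ± 0.12 log2, PIF4, the factor that drives elongation, by -0.52 ± 0.10 and the bHLH protein PRE1 by -0.53 ± 0.14. PRE1 lost its call without 5 of 8 single arrays (adjusted p up to 0.138). HB-2, EXPA8 and PRE1 lost their calls with array 4 at 24 h in the fit, and HB-2, HAT3, PIF4 and PRE1 in the fit of the 8 arrays alone. PIF5 was not called (-0.19 ± 0.11, adjusted p = 0.522).

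Auxin genes, which carry the growth response to shade, gave 2 falls and no rise among 12 (16.7% called, against 3.11% of all probe sets, list median -0.06 log2). IAA29 (AT4G32280), an early auxin and PIF target, had 16.2, 49.9, 64.5 and 88.8 at 1 h, against 134, 104, 127 and 78.9 at 0.5 h and 516, 601, 582 and 475 at 0 h. The 1 h mean was below the first quartile of signals, so the fall is given as a bound of 1.12 log2 that takes no account of the spread (fitted -1.20 ± 0.28, adjusted p = 0.0081). Array 4 at 1 h overlapped with 0.5 h, and without 1 h array 1 the adjusted p was 0.072 (lowest value 0.000548 over the arrays left out). GH3.5, which conjugates auxin to amino acids, changed by -0.58 ± 0.10 log2. Of 9 SAUR genes, small growth genes induced by auxin, 1 rose (11.1%, against 1.53% of all probe sets higher), SAUR23 (AT5G18060). SAUR23 had 99.7, 172, 117 and 92.8 at 1 h, against 24.7, 60.1, 53.6 and 77.5 at 0.5 h and 545, 503, 489 and 457 at 0 h, so that the 1 h values stood between the other times. Its rise was 1.21 ± 0.31 log2 (adjusted p = 0.0212), but its probe set is marked as one that can hybridize with related transcripts, and 3 of 8 single arrays ended the call when left out (adjusted p up to 0.148). IAA29, GH3.5 and SAUR23 were not called in the fit of the 8 arrays alone, nor was IAA29 with array 4 at 24 h in the fit.

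**Figure D3:**
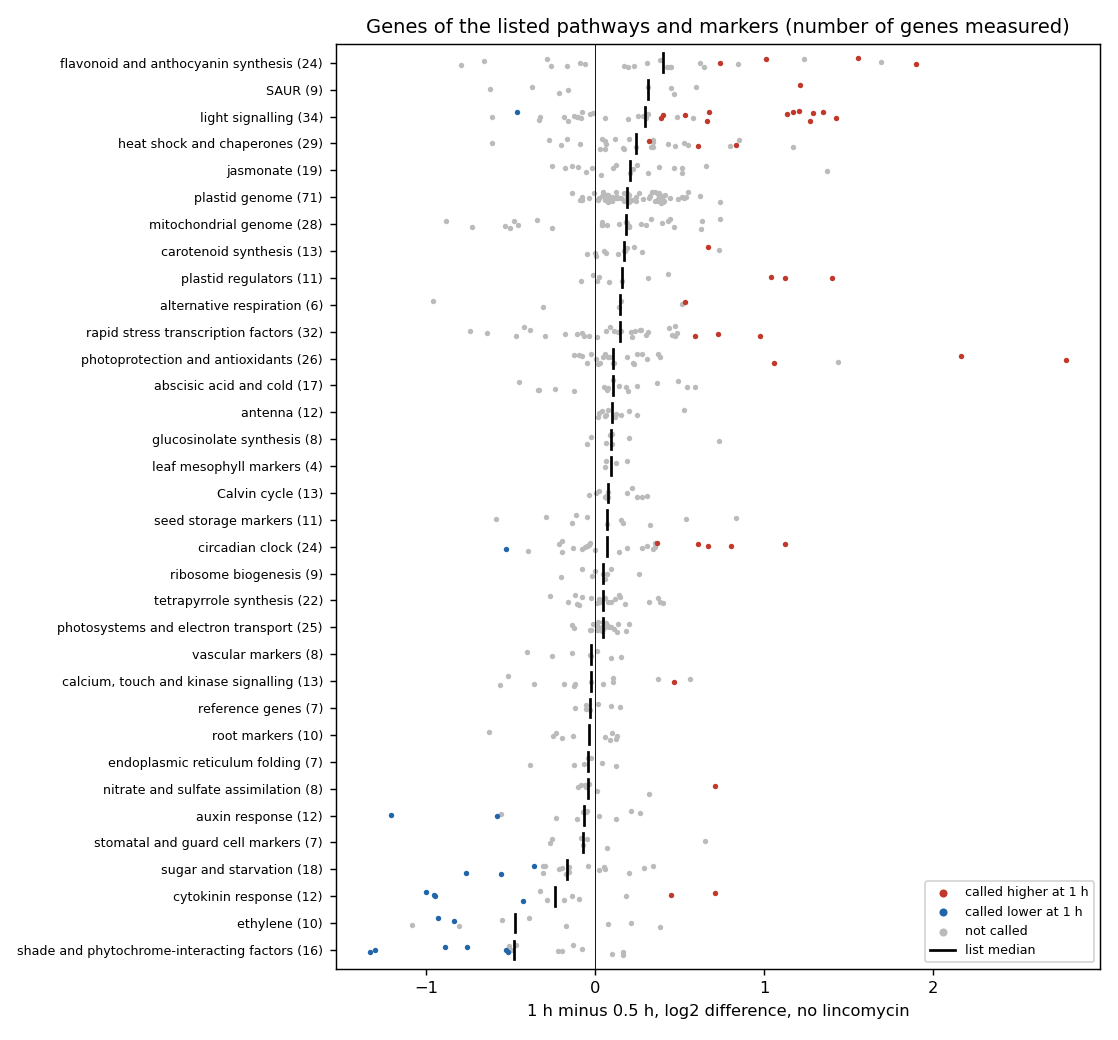
Change between 0.5 and 1 h without lincomycin (1 h minus 0.5 h, log2 difference, horizontal axis) of the genes of 34 lists, with the number of measured genes in brackets. Each dot is a gene (red called higher, blue called lower, grey not called) and black bars are list medians, which run from 0.40 for flavonoid synthesis to -0.48 for shade genes.

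Of the 12 cytokinin response genes, 3 were called higher at 0.5 h than at 0 h and then fell. The list also held CRF2 and ARR16, described below, which were called higher at 0.5 h and rose further. Type-A response regulators are induced by cytokinin within minutes and in turn dampen its signalling. ARR5 (AT3G48100) had 1166, 1461, 1452 and 1548 at 1 h, against 2450.1, 2644, 3140.2 and 3002 at 0.5 h and 1299.8, 1277, 1099 and 1348 at 0 h. At 1 h, 3 of the 4 ARR5 arrays lay above the range of the 0 h arrays and all lay below those at 0.5 h, and ARR5 changed by -0.998 ± 0.11 log2 in the step (adjusted p = 2.5e-07). ARR6 (AT5G62920) had 1055, 1028, 1333 and 1187 at 1 h, against 2198, 1909, 2407 and 2346 at 0.5 h and 770.4, 846, 609.7 and 762 at 0 h. ARR7 (AT1G19050) had 2322, 2706, 3396 and 3295 at 1 h, against 5727, 5205, 5926 and 5559.8 at 0.5 h and 1632, 1769, 1499 and 1779.8 at 0 h. ARR6 changed by -0.95 ± 0.15 and ARR7 by -0.95 ± 0.16 log2, and in both the 1 h arrays lay between the others without overlap. At 0.5 h against 0 h the 3 genes had been 1.16, 1.57 and 1.75 log2 higher, and at 1 h against 0 h they were at 0.16, 0.63 and 0.80. These comparisons share arrays with the step.

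Of the 12 genes in the cytokinin list, 4 fell and 2 rose (50.0% called, against 3.11% of all probe sets). The other called members, named after their values were seen, were ARR9 (-0.43 ± 0.09 log2), CRF2 (0.71 ± 0.15), a cytokinin response factor, and ARR16 (0.45 ± 0.11), which lost its call without 0.5 h array 4 (adjusted p = 0.0763). ARR16 and CRF2 were called neither with array 4 at 24 h in the fit nor from the 8 arrays alone, and ARR9 was not called from the 8 arrays alone. ARR4, the brightest member without a call, differed by 0.18 ± 0.14 log2 (adjusted p = 0.748). Counting all genes, 6 of the 349 that fell had been called higher at 0.5 h than at 0 h. They were ARR5, ARR6 and ARR7 and, named after their values were seen, AT1G61690 (-0.47 log2 in the step), AT1G55255 (-0.44) and AT5G22700 (-0.35). The last 3 lost their calls without 3, 6 and 8 of the 8 single arrays, with adjusted p up to 0.0962, 0.131 and 0.155. A further 58 of the genes that fell had already been called lower at 0.5 h, and 285 had not been called, in a comparison with 0 h that shares the 0.5 h arrays. Of the 337 genes that rose, 69 had been called higher at 0.5 h, 263 had not been called and 5 had been called lower. Calls at 0.5 h against 0 h numbered 399 probe sets (1.75%), higher in 0.866% and lower in 0.888% of all, and at 1 h against 0 h 2108 (9.27%). Among the 5 genes with a dip at 0.5 h, AT1G78170, chosen after its values were seen, had 563, 727, 642 and 521 at 1 h, against 312, 338, 277 and 389 at 0.5 h and 433, 489, 538 and 435 at 0 h. It rose by 0.90 ± 0.12 log2 in the step.

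Ethylene genes gave 2 falls among 10 (20% called, against 3.11% of all probe sets, list median -0.47 log2). ERS2 (AT1G04310), an ethylene receptor, had 345, 212, 248 and 278 at 1 h, against 471, 510.4, 433 and 643 at 0.5 h. EBF2 (AT5G25350), an F-box protein that removes the ethylene factor EIN3, had 809, 933, 939.7 and 917 at 1 h, against 1496, 1599, 1764 and 1557 at 0.5 h. Neither pair of groups overlapped, and the changes were -0.93 ± 0.22 and -0.83 ± 0.13 log2 (adjusted p = 0.0106 and 3.9e-05). ERS2 lost its call without 0.5 h array 4 (adjusted p = 0.0642) and without 1 h array 2, against a lowest value of 0.00738 over the single arrays. Sugar and starvation genes gave 3 falls among 18 (16.7% called, against 3.11% of all probe sets, list median -0.16 log2). TPS8 (AT1G70290), a trehalose-phosphate synthase homolog, had 1357, 1238, 1282 and 1369 at 1 h, against 1898, 1981, 2240.01 and 2904 at 0.5 h and changed by -0.76 ± 0.14 log2 (adjusted p = 0.00032). BZO2H3, a bZIP factor of the energy response, changed by -0.56 ± 0.14 and TPS10 by -0.36 ± 0.09. BZO2H3 and TPS10 were called neither with array 4 at 24 h in the fit nor from the 8 arrays alone, and ERS2 and TPS8 were not called from the 8 arrays alone. BZO2H3 lost its call without 3 and TPS10 without 2 of the 8 single arrays (adjusted p up to 0.112 and 0.0638).

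In 17 of the 34 lists no gene was called by limma, and 38 of their 278 genes (13.7%) had an unadjusted p under 0.05, against 12.2% of all probe sets. Beside the photosynthesis lists and the plastid genome these were the lists of abscisic acid and cold (17 genes, median 0.11 log2), jasmonate (19, 0.21), endoplasmic reticulum folding (7, -0.04), glucosinolate synthesis (8, 0.09), ribosome biogenesis (9, 0.05), the mitochondrial genome (28, 0.18) and commonly used reference genes (7, -0.03). Markers of single tissues gave no call either: 10 of the root (median -0.04 log2), 7 of stomata (-0.07), 8 of vascular tissue (-0.03), 11 of seed storage (0.07) and 4 of leaf mesophyll (0.09). Mesophyll markers, the check of green seedling tissue, averaged 13.08 to 13.11 log2 on the 1 h arrays and 12.86 to 13.14 on the 0.5 h arrays. Root markers averaged 8.19 to 8.46 at 1 h and 8.17 to 8.57 at 0.5 h, and seed storage markers, 9 of which were below the first quartile of signals, 3.98 to 5.24 at 1 h and 4.32 to 5.02 at 0.5 h.

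The same step was measured in seedlings grown with lincomycin, on other arrays. There 201 probe sets (0.884%) were called, 142 higher (0.624%) and 59 lower (0.259%), with 3 arrays in place of 4 at 1 h. Of the 337 genes that rose without lincomycin, 292 were also above 0 in the step with lincomycin, where 42.9% of all genes were. Their medians were 0.68 log2 without and 0.33 with lincomycin. Of the 349 genes that fell, 294 were below 0 with lincomycin, where 57.1% of all genes were, and the medians were -0.54 without and -0.16 with lincomycin. The genes were selected for their change without lincomycin, so the medians are a description of these lists.

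For several leading rises the difference between the steps did not pass the test. ELIP1 differed by 2.78 ± 0.44 log2 without and 2.70 ± 0.47 with lincomycin, where it had 639, 882 and 1243 at 1 h, against 27.1, 253, 251 and 193 at 0.5 h. SIG5 differed by 1.40 ± 0.13 without and 1.61 ± 0.14 with lincomycin, HY5 by 1.27 ± 0.16 and 1.81 ± 0.17, and GI by 1.13 ± 0.10 and 1.24 ± 0.11. Without minus with lincomycin, the difference was 0.08 ± 0.64 log2 for ELIP1, -0.21 ± 0.18 for SIG5, -0.54 ± 0.24 for HY5 and -0.11 ± 0.15 for GI, with adjusted p of 0.593 for HY5 and above it for the others. ELIP2 differed by 2.16 ± 0.28 without and 1.14 ± 0.30 with lincomycin, and this difference of 1.03 ± 0.41 was not called either (adjusted p = 0.513).

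The difference between the steps, without minus with lincomycin, was called in 12 probe sets (0.0528%), 8 higher (0.0352%) and 4 lower (0.0176%), while 1690 had an unadjusted p under 0.05. Not all of the 12 are named below. AT3G48460 differed most clearly. It had 1954, 1984, 1864 and 1657 at 1 h, against 761, 672, 653 and 579.9 at 0.5 h without lincomycin, and 813, 974 and 875 at 1 h, against 635, 589, 655 and 558 at 0.5 h with lincomycin. Its step was 1.49 ± 0.10 log2 without and 0.54 ± 0.11 with lincomycin, a difference of 0.95 ± 0.15, adjusted p = 0.005 (0.00285 to 0.0235 with single arrays left out). MYB13 stepped by 1.89 ± 0.18 log2 without and 0.52 ± 0.19 with lincomycin (difference 1.36 ± 0.26, adjusted p = 0.0234). With lincomycin MYB13 had 329.8, 376 and 429.6 at 1 h, against 236, 394, 279.6 and 179 at 0.5 h, so these groups overlapped. AT1G55960 (difference 0.92 log2) and AT2G28200 (0.87) also rose without lincomycin and were not called in the step with it. AT1G25375 was not called without lincomycin (0.40 log2) but was lower with it (-0.65; difference 1.05).

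ARR5 was the transient with a called difference: it changed by -0.998 ± 0.11 log2 without and -0.13 ± 0.12 with lincomycin (difference -0.87 ± 0.17, adjusted p = 0.0234). With lincomycin ARR5 had 896, 991 and 1183 at 1 h, against 1098, 829, 1350.04 and 1233 at 0.5 h and 1174, 1157, 1059 and 1161 at 0 h, with no peak at 0.5 h beyond the spread. ARR6 (-0.74 ± 0.22) and ARR7 (-0.85 ± 0.23) had differences of like size that were not called (adjusted p = 0.278 and 0.207). LSD1 (AT4G20380), a zinc finger regulator of cell death, fell to 1183, 1072, 1121 and 1194 at 1 h, against 1754, 1752, 1909 and 2060.3 at 0.5 h without lincomycin. With lincomycin LSD1 had 1349.6, 1386 and 1479.6 at 1 h, against 1397, 1298, 1482 and 1687 at 0.5 h, and the difference was -0.65 ± 0.13, adjusted p = 0.0234. AT1G30260 changed by -1.09 log2 without and 0.25 with lincomycin (difference -1.34). With lincomycin AT1G30260 was low throughout, at 232 to 295 at 0 h, 178 to 378 at 0.5 h and 266 to 377 at 1 h. Without lincomycin it still had 527 to 733 at 1 h. SAUR23 went opposite ways, with 1.21 log2 without and -1.47 with lincomycin (difference 2.69 ± 0.46, adjusted p = 0.01). The differences of AT3G48460 and SAUR23 kept their calls with each of 15 arrays left out. Those of AT1G55960, ARR5, LSD1, MYB13, AT1G30260, AT2G28200 and AT1G25375 lost theirs for 3, 6, 6, 7, 9, 9 and 13 of the 15 arrays, with adjusted p up to 0.119, and each lost it with array 4 at 24 h in the fit. Differences between arrays of the treatments in the spike-in control move with this comparison, and their part in it was not tested.

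**Figure D4:**
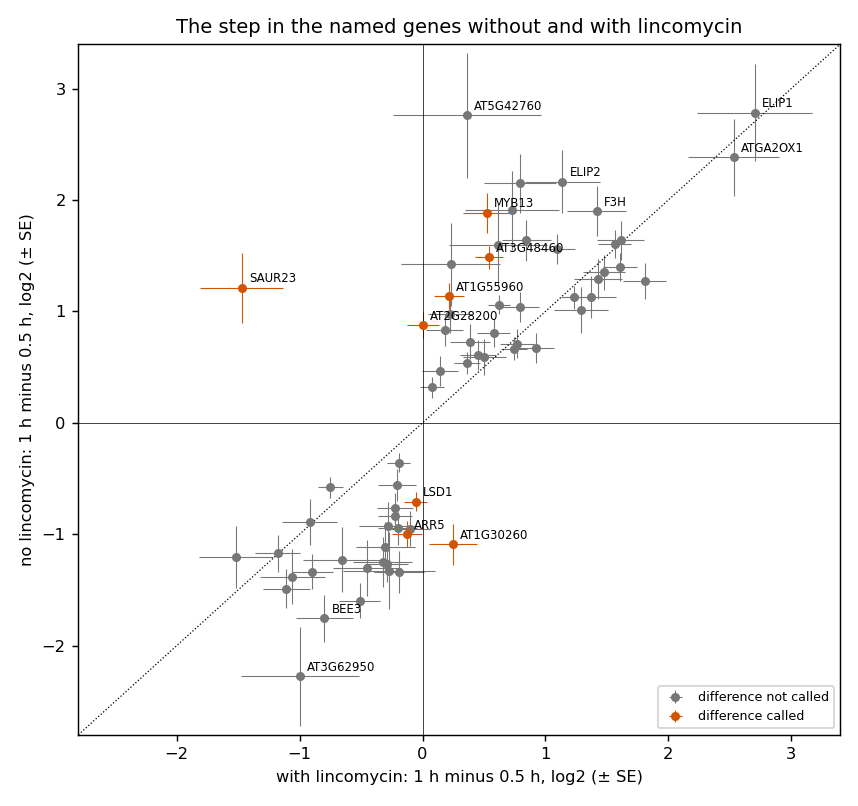
Step between 0.5 and 1 h (1 h minus 0.5 h, log2, ± SE) in 66 named genes, each called in the step without lincomycin, plotted without lincomycin (vertical axis, 4 arrays a group) and with lincomycin (horizontal axis, 3 arrays at 1 h and 4 at 0.5 h). The dotted line marks equal steps, and orange dots are the 8 genes with a called difference. ELIP1 lies near the line, MYB13, AT3G48460 and SAUR23 lie above it, and ARR5, LSD1 and AT1G30260 lie below it.

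Later arrays, which share none with the step, show where these genes stood afterwards. Against the 0 h arrays 5 to 8 without lincomycin, 41.6% of all probe sets were called at 4 h, 4752 of them higher (20.9%) and 4718 lower (20.7%). Of the 337 genes that rose in the step, 246 were higher at 4 h (73.0%) and 16 lower, where 21.2% of all genes were higher and 21.0% lower. Of the 349 that fell, 295 were lower at 4 h (84.5%) and 5 higher. At 24 h, where 3 arrays entered the fit, 43.7% of all probe sets were called, and 19.2% of all probe sets were higher and 24.5% lower. There 200 of the genes that rose were higher and 48 lower, while 283 of those that fell were lower and 5 higher. With array 4 at 24 h in the fit, 168 genes rose and 149 fell in the step. At 24 h 108 of these 168 were then higher and 21 lower, and 116 of the 149 lower and 3 higher. The median over all genes at 24 h was -0.09 log2 without that array and 0.16 with it.

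Single genes took different courses. F3H was 5.12 ± 0.22 log2 above 0 h at 4 h and 3.22 ± 0.24 at 24 h, and CHS, not called in the step, was 6.30 ± 0.46 above at 4 h and 6.32 ± 0.49 at 24 h. ELIP1 was 4.92 ± 0.44 above at 4 h and 3.07 ± 0.47 at 24 h. HY5 was 1.40 ± 0.16 log2 above 0 h at 4 h and -0.49 ± 0.17 at 24 h, and RUP1 was at 1.62 ± 0.16 and -0.65 ± 0.17, so both were below their 0 h level at 24 h (adjusted p = 0.0188 for HY5 and 0.0019 for RUP1). ARR5 stood at -0.996 ± 0.11 log2 at 4 h and -1.42 ± 0.12 at 24 h, below 0 h at both times (adjusted p = 3.2e-09 and 2.6e-12). ARR6 (0.19 and -0.18) was called at neither time (adjusted p = 0.34 and 0.425), and ARR7 was at 0.39 and -0.19 (adjusted p = 0.0457 and 0.407). Among the falls, SIS was at -4.65 ± 0.16 log2 at 4 h and -4.28 ± 0.17 at 24 h. BEE3 stood at -0.10 ± 0.21 and -0.19 ± 0.23 and was not called at either time (adjusted p = 0.766 and 0.57). The 24 h values of these genes rest on 3 arrays, and their values with array 4 in the fit are not given here.

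The authors' deposited table of log ratios held both times against 0 h for 679 of the 708 called probe sets. The difference of its 2 ratios had the same sign as the step in 673 of them. These ratios share the authors' arrays and are no independent check. Among 89 named called genes with a value, the size differed by more than 1 log2 from the step in 8. The authors' deposited table was close to 0 for IAA29 (-0.09) and SAUR23 (0.14), and larger than the step for AT5G42760 (5.44), ELIP1 (3.92), ELIP2 (3.43), ASG4 (2.77), ZAT10 (2.32) and AT5G02760 (-2.67). AT1G25375, not called in the step, had -0.27 in the authors' deposited table and 0.40 here. For AT3G62950, whose fall is given above as a bound, the deposited difference was -1.33.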

How the data were processed

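The values used were linear probe set intensities from the series' table as deposited by the authors. MAS5 and GCRMA are given, per the submitters' processing notes, with no role stated. From the values, each of the 8 arrays had a 2% trimmed mean of 500.03 to 500.05. A second table holds, per the file headers, the authors' log ratios against 0 h, read here as log2 values since no base is stated, and their p-values, which were not used.

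Values were transformed to log2(signal + 1). A limma 3.58.1 fit in R 4.3.3 held 46 arrays in 12 cells with 34 residual degrees of freedom, each 0 h group being split by array numbers 1 to 4 and 5 to 8. Of 22810 probe sets, 64 controls were left out. Adjusted p-values are Benjamini-Hochberg values over 22746 probe sets. Genes were named through the platform annotation and the genome annotation (21486 probe sets with 1 gene, 503 with several, 688 with none and 69 with conflicting names), and the brightest probe set stood for a gene that had more than 1.

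Named genes were the 12 largest called rises and falls with a group mean at the median level or above and no overlap. Up to 3 called genes of each list with the brightest uncalled one and a few fixed genes were added. So were up to 5 of the largest called step differences in each direction that reached the same level, so not every called difference is named. Members and lists were chosen with earlier results of these data known. Where the dimmer group did not exceed the averaged first quartile of its arrays, a bound is given in place of a fold. The bound is the distance of the brighter group mean from that quartile and takes no account of the spread. The fit was also run on simulated data with independent normal noise, which cannot speak for skewed dim values or for single arrays that stand apart. Replicates were grown separately, per the study's design text. The search of promoters for motifs was not run, and no sequences were used here. Python 3.11.15, pandas 2.3.3, numpy 2.4.6 and matplotlib 3.10.9 were used for collection and figures.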

Additional observations from a re-analysis of the deposited data

Results flagged for a closer look

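Single arrays stood far from the other 3 of their group in 8 of 194 groups of 4 arrays tested, where chance alone marks about 1 in 20. At 1 h these were the signals of 5513 for VTC2 on array 3, 809 for EBF2 on array 1, 1137 for BBX21 on array 2, 362 for ZAT10 on array 4, 32.1 for HB-2 on array 3 and 217 for AT5G22700 on array 1. At 0.5 h they were the signals of 352 for BZIP61 on array 3 and 949 for AT1G30260 on array 2.

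The step without lincomycin minus the step with lincomycin passed the interaction test of limma in 9 named genes and in other probe sets. It was higher without lincomycin in SAUR23 (2.69 log2, from dim signals), MYB13 (1.36), AT1G25375 (1.05), AT3G48460 (0.95), AT1G55960 (0.92) and AT2G28200 (0.87). It was lower without lincomycin in AT1G30260 (-1.34), ARR5 (-0.87) and LSD1 (-0.65).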

How the results depend on the processing

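Over 47 arrays, array 4 at 24 h included, the step without lincomycin gave 329 calls and the difference between the steps 3, while the step with lincomycin gave 74, 0.5 h against 0 h 194 and 1 h against 0 h 1292. In that fit 4 h against 0 h gave 7626 calls and 24 h against 0 h 9602. Of the 9947 calls at 24 h in the main fit, 7988 were kept. The 8 arrays alone gave 314 calls for the step (202 higher and 112 lower). A filter on dim probe sets gave 19 calls for the difference and an intensity trend 21. With single arrays left out, the step had 476 to 644 calls and the difference 3 to 20, the lowest without 0.5 h array 3 without lincomycin and the highest without 0.5 h array 1 with lincomycin. The other settings gave the step 658 calls with quantile scaling, 738 with a pseudocount of 32, 806 with the trend, 851 with the filter and 624 from the 12 early arrays alone. Array numbers did not pair the arrays (correlations of same-numbered deviations from -0.05 to 0.11), and the replicate block gave 674 calls for the step and 12 for the difference. RCA, not called, ran from -0.0009 log2 (without 0.5 h array 4) to 0.1038 (without 0.5 h array 1). Of 97 named results, 51 stayed on their side of the threshold in every setting tested for them. Quantile scaling ended the step calls of BBX21, CML24, LKP2, MYB4 and SAUR23 and the difference calls of AT1G25375, AT1G30260, AT2G28200 and MYB13, and the 12 early arrays alone that of MBF1C. Up to 8 settings other than single arrays left out were tested for a step call. AT5G22700 lost its call in 6 of them, CML24 and AT1G55255 in 5, and BBX21 and MYB4 in 4. BZO2H3, HB-2, IAA29, LKP2, PRE1, SAUR23 and TPS10 lost theirs in 3, and HAT3 and SPA1 were among those that did in 2. In CCA1 the 12 early arrays and the filter gave a call, and in RD26 2 of the 8 other settings did. The causes of these changes were not tested. The median signals near 200 and dim values near the first quartile limit changes to bounds for 3 named genes.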
